A study of Mus musculus with 4 samples.

Results

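The collagen gene family was followed through the RNA profiles of 4 primary mammary tumors of female mice. Its members were the rows whose gene name consisted of Col, a number, the letter a and a second number, which gave 43 of the 23746 rows listed. These were split by the structure of the protein into 11 fibrillar collagens, 6 basement membrane collagens (the chains of type IV) and 26 other collagens. Of the 43 genes, 32 reached 1 FPKM in at least 2 tumors and entered the comparison among 12752 genes in all. FPKM is the number of fragments scaled by transcript length and by the number of mapped fragments, so levels of different genes can be set side by side.

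The study asked what loss of RANK, the receptor for RANKL (gene Tnfrsf11a), does to mammary tumors driven by loss of Brca1 and p53. Tumors 26043 and 26044 came from WapCre;Rank;Brca1;p53 females (triple-mutant) and tumors 26048 and 26050 from WapCre;Brca1;p53 females (double-mutant), so that Brca1 and p53 were deleted in all 4. The conditional alleles were deleted by WapCreC, a Cre recombinase under the whey acidic protein promoter that in this line is active in luminal and basal mammary epithelium without pregnancy or doxycycline. No activity in stroma, vessels or fat is described in the sources used here. The study calls the sequenced females littermates and describes tumors of triple-mutant mice as intermediate-grade and those of double-mutant mice as intermediate-grade or high-grade. Age at collection, the grade of each double-mutant tumor and which tumor came from which animal and litter are not given in the sources used here, so p-values measure the spread between these tumors, and grade and genotype cannot be told apart.

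Collagens are triple-helical proteins of the extracellular matrix built on a repeat of glycine and a pair of other residues. Fibrillar types I, III and V build the tensile fibrils of connective tissue and are made mostly by fibroblasts, type IV forms the sheet-like network of basement membranes under epithelium and around vessels, and smaller families anchor, decorate or link these structures. In mammary tumors the stroma supplies most fibrillar collagen, whereas basal epithelial cells contribute basement membrane components, anchoring fibrils and hemidesmosomes.

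The repeat that defines the family could be read from the coding sequences. In the GENCODE M21 annotation of GRCm38 (mm10), the longest uninterrupted run of triplets that begin with a GGN (glycine) codon was 216 to 344 triplets in the 11 fibrillar genes (median 338), against 39 to 66 in the 6 type IV genes, whose coding sequences held 22 to 27 separate runs of at least 5 triplets. Col17a1 and Col7a1, which showed the largest differences in the opposite direction to the fibrillar genes, held longest runs of 56 and 75 triplets. The first 10 triplets of the longest run are shown for a gene of each kind, with glycine codons in capitals and introns removed: Col1a1 from codon 168 (chr11:94939451-94939939, plus strand), Col3a1 from codon 164 (chr1:45323762-45325413, plus strand), Col4a1 from codon 43 (chr8:11247024-11267614, minus strand) and Col17a1 from codon 648 (chr19:47664415-47665875, minus strand).
Col1a1: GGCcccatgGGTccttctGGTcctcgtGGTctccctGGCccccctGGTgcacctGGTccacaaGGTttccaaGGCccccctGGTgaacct
Col3a1: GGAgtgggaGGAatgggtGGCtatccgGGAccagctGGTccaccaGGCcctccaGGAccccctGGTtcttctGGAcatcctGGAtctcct
Col4a1: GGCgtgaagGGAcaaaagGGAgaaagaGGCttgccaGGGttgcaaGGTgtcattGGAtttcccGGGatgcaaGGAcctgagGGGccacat
Col17a1: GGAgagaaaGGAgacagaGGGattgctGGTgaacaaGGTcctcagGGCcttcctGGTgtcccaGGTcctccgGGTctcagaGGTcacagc

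Promoter sequence was available for 35 of the 43 genes (38 promoters of RefSeq, GRCm38.p6). The 250 bases upstream of the start are shown for genes treated below as higher (Col17a1, Col8a2) or lower (Col3a1, Col5a1) in the triple-mutant tumors, chosen after their values were seen from those whose start in the table was the RefSeq start. Capitals mark matches, on either strand, to 3 motifs: TATAAA, which is the core of the box bound by TBP, the sequence CCAAT known as the box bound by NF-Y, and GGGCGG, the box bound by Sp factors. The windows are chr19:47692043-47692292 (Col17a1, minus strand), chr4:126286544-126286793 (Col8a2, plus strand), chr1:45311288-45311537 (Col3a1, plus strand) and chr2:27886175-27886424 (Col5a1, plus strand).
Col17a1: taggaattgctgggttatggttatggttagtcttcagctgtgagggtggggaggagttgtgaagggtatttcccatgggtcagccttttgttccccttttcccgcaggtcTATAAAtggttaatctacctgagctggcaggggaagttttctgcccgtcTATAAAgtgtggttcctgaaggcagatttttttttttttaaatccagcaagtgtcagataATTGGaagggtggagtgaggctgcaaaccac
Col8a2: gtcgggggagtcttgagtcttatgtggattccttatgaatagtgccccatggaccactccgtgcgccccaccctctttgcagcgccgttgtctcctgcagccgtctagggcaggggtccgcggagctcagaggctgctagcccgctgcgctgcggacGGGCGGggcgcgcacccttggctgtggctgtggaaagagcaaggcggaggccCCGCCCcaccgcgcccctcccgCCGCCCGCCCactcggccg
Col3a1: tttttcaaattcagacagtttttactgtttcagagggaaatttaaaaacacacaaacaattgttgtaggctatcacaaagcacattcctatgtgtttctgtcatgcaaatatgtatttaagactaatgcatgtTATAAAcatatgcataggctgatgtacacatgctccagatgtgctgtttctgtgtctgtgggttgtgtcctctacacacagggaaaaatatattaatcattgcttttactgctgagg
Col5a1: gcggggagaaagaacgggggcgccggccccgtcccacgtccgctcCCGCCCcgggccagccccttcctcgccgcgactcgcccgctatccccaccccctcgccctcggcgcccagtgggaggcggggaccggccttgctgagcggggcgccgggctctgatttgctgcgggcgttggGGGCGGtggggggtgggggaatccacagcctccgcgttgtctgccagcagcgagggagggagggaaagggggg

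The Col17a1 window held TATAAA 140 and 91 bases before the start and CCAAT on the other strand 31 bases before it, and the Col3a1 window held TATAAA 117 bases before the start. The Col8a2 window held GGGCGG 4 times, the last pair overlapping each other, and the Col5a1 window 2 times, with neither of the other motifs. Over the same 250 bases, TATAAA occurred in 12.4% of 32851 mouse promoters, CCAAT in 33.8% and GGGCGG in 32.7%, and in at least 1 promoter of 5, 13 and 21 of the 35 collagen genes, respectively. These matches describe the letters and are no sign of binding.

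The targeted receptor was listed in every tumor. Tnfrsf11a stood at 2.07 and 0.962 FPKM in the triple-mutant tumors and at 10.6 and 11.9 FPKM in the double-mutant tumors, a difference of -2.32 ± 0.37 (SE) on the log2(FPKM + 1) scale (adjusted p = 0.225, limma with Benjamini-Hochberg adjustment). Between 12150 and 12681 genes reached 1 FPKM in a tumor, and the 6 luminal markers together reached 424 to 2836 FPKM, so the tumors carried RNA of mammary epithelium. The depth of the libraries is unknown because the tables hold no counts. In tumor 26044, a stretch of chromosome 10 of 11.5 megabases that contains 3 collagen genes was raised as a block, as given beside Col18a1.

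No collagen gene passed the test between genotypes. With 2 tumors a side, limma called 0 of 12752 genes at an adjusted p under 0.05 (0.0% of all genes tested), and the adjusted p of the 32 collagens ran from 0.167 to 0.993. At an unadjusted p under 0.05 there were 9 collagens, 4 of them higher in the triple-mutant tumors (background 5.91% of all genes) and 5 lower (background 3.91%). The tumors of the 2 genotypes did not overlap for 5 collagens that were higher (background 21.3%) and 10 that were lower (background 22.9%) in the triple-mutant tumors. Together these made up 46.9% of the family against 44.3% of all genes, so separation as such was no more frequent among collagens. By size, 4 of the separated genes were higher by at least 1 log2 unit (background 7.3%) and 9 lower by at least 1 log2 unit (background 4.65%), with a median over the family of -0.35 against -0.02 over all genes. The number of separated genes rests on which tumors are compared: leaving out tumor 26048 gave 13 higher, leaving out 26043 gave 9 higher, and leaving out 26050 gave 19 lower, since 1 tumor is more easily separated from 2 than 2 from 2. For any single value, the exact two-sided permutation test over 4 tumors cannot go below p = 0.333.

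**Figure D1:**
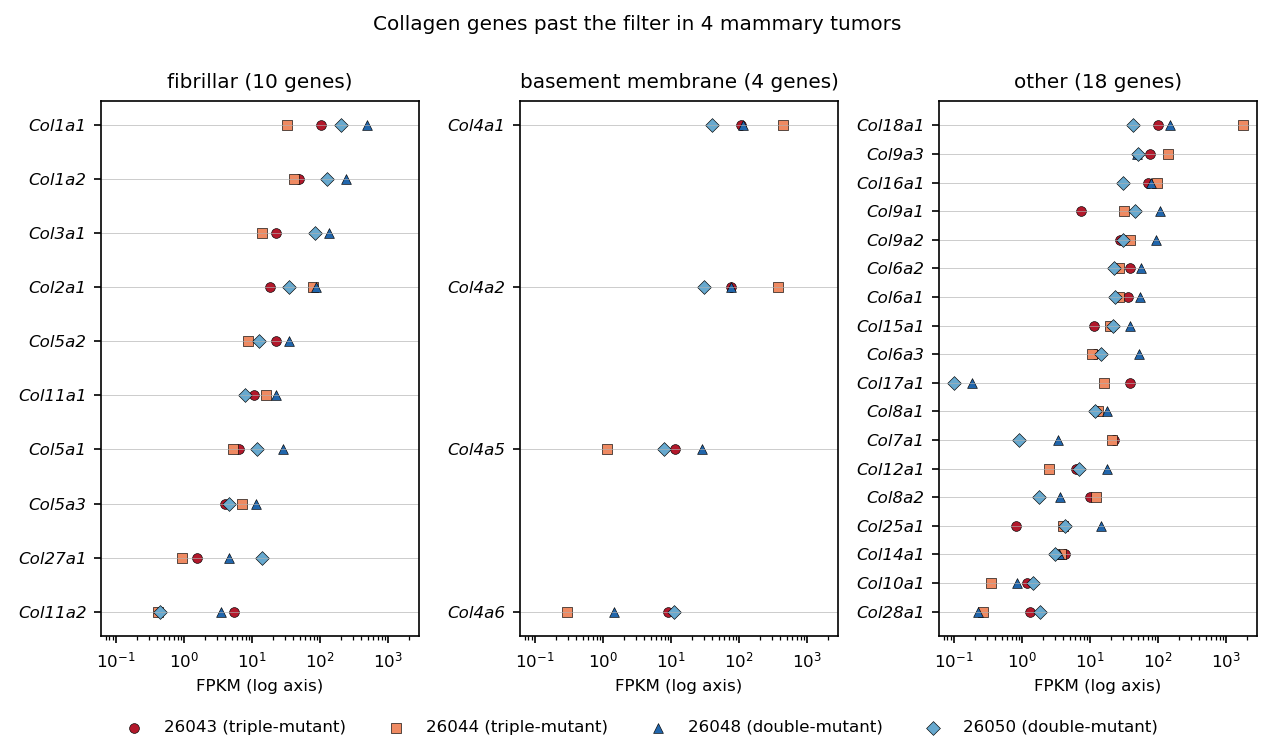
FPKM of the 32 collagen genes past the filter in each of the 4 tumors (log axis; 1 symbol per tumor, red and orange for triple-mutant, blue for double-mutant), by class. Among fibrillar genes the blue symbols of Col1a1, Col1a2, Col3a1, Col5a1 and Col27a1 lie to the right of the red ones, while Col17a1, Col7a1 and Col8a2 lie the other way round, and Col18a1 reaches 1730 FPKM in tumor 26044 alone.

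Fibrillar genes made up 5 of the 9 separated collagens that were lower by at least 1 log2 unit. All 5 fibrillar genes whose genotypes did not overlap were lower in the triple-mutant tumors by more than 1 log2 unit, none of the 10 tested was separated in the other direction, and the median of the class was -1.04. The share separated, 50% in all, is near the 44.3% of all genes (22.9% lower, 21.3% higher). Without tumor 26050 the separated fibrillar genes numbered 9 lower, and without 26044 or without 26048 there was 1 higher. In a bulk tumor, fewer cells of a type and less RNA per cell cannot be told apart, and this holds for every difference below.

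Col1a1 (chr11:94936270-94951856), which encodes the major chain of type I collagen, stood at 102 and 32.6 FPKM in the triple-mutant tumors 26043 and 26044 and at 486 and 200 FPKM in the double-mutant tumors 26048 and 26050. The highest triple-mutant value was thus below the lowest double-mutant value, with a difference of -2.41 ± 0.73 (SE; adjusted p = 0.476, limma). Col1a2 (chr6:4505697-4541543), the partner chain in the type I trimer, stood at 47.9 and 40.5 FPKM against 237 and 124 FPKM (-1.94 ± 0.40, adjusted p = 0.345). Both type I chains had the same order of tumors, 26048 highest and 26044 lowest. Col3a1 (chr1:45311538-45349706), the homotrimeric fibril former that is laid down with type I in distensible tissue, stood at 22.7 and 14.0 FPKM against 135 and 83.1 FPKM, the largest difference of a fibrillar gene (-2.50 ± 0.40, adjusted p = 0.231). Its groups were separated by a wide gap and its tumors had the order seen for type I.

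Type V, which nucleates type I fibrils, was split between its chains. Col5a1 (chr2:27886425-28039510) was at 6.47 and 5.20 FPKM in the triple-mutant and at 28.6 and 11.6 FPKM in the double-mutant tumors (-1.51 ± 0.50, adjusted p = 0.485, limma). Col5a2 overlapped between genotypes, at 22.5 and 8.54 FPKM against 34.9 and 12.7 FPKM (-0.57, adjusted p = 0.798). Col5a3, the remaining chain, overlapped as well, at 3.96 and 7.11 FPKM against 11.4 and 4.56 FPKM. Col27a1, a fibrillar collagen with a shorter helix known from cartilage, was at 1.53 and 0.937 FPKM against 4.56 and 14.0 FPKM (-2.05 ± 0.58, adjusted p = 0.466). It was the 1 separated fibrillar gene that peaked in tumor 26050 rather than in 26048.

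The collagens of cartilage fibrils did not follow type I. Col2a1, the main fibril protein of cartilage, was at 18.1 and 77.5 FPKM in the triple-mutant and 85.2 and 34.8 FPKM in the double-mutant tumors, so each genotype held a high and a low tumor (-0.52, adjusted p = 0.846, limma). Col11a1, which sets the diameter of type II fibrils, was at 10.6 and 16.0 FPKM against 22.1 and 7.73 FPKM (-0.02, adjusted p = 0.993). Col11a2 stayed low, from 0.414 FPKM in tumor 26044 to 5.34 FPKM in tumor 26043. The 6 cartilage markers summed to 3.42 and 2.93 FPKM in the triple-mutant and 9.33 and 1.20 FPKM in the double-mutant tumors. Of these, Acan, Hapln1, Matn1 and Matn3 were under 0.1 FPKM in tumors 26043, 26044 and 26050, with Acan at 0.665 FPKM in 26048. Comp reached 7.17 FPKM in 26048, and Chad was separated as higher in the triple-mutant tumors, at 2.96 and 2.30 FPKM against 1.22 and 0.370 FPKM. The 4 osteoblast markers summed to 0.476 to 2.19 FPKM.

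Type IX collagen coats those fibrils, and its 3 chains differed among themselves. Col9a1 was at 7.24 and 31.5 FPKM in the triple-mutant tumors and at 107 and 46.0 FPKM in the double-mutant tumors (-2.12 ± 0.81, adjusted p = 0.511, limma). Col9a3 was separated the other way, at 75.5 and 138 FPKM against 48.9 and 51.2 FPKM (1.02 ± 0.38, adjusted p = 0.508). Col9a2 overlapped, at 27.2 and 38.6 FPKM against 91.5 and 30.4 FPKM. The ratio of Col9a1 to Col9a3, chosen after the values were seen, was 0.0959 and 0.228 in the triple-mutant and 2.18 and 0.900 in the double-mutant tumors, so the excess of Col9a3 over Col9a1 was present in both triple-mutant tumors and was slight or absent in the others.

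**Figure D2:**
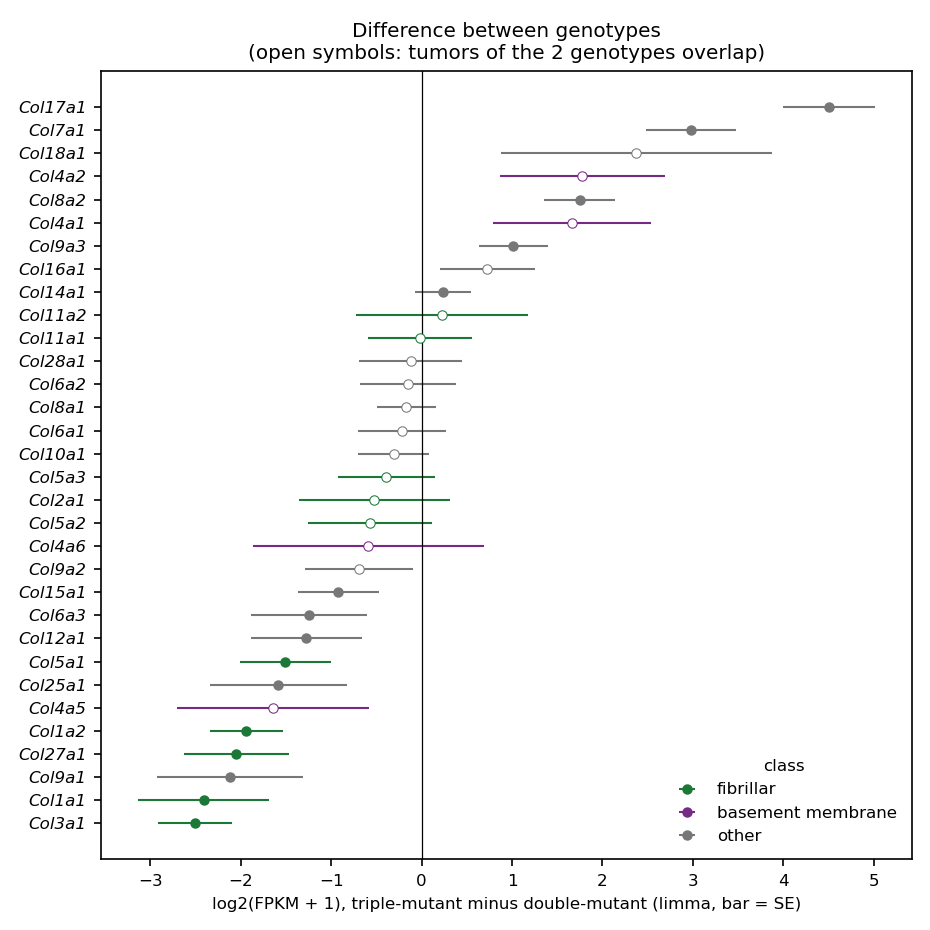
Difference in log2(FPKM + 1) between triple-mutant and double-mutant tumors for the 32 collagen genes past the filter (limma, 2 tumors a side; bars are 1 SE; filled symbols mark genes whose genotypes do not overlap). The 5 filled fibrillar symbols (green) all lie below -1, the 4 type IV symbols (purple) are all open, and Col17a1 at 4.51 and Col7a1 at 2.98 lie farthest to the right.

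Summed over the class, fibrillar collagens amounted to 241 and 203 FPKM in the triple-mutant tumors (222 ± 27.2, SD, n = 2) and to 1048 and 492 FPKM in the double-mutant tumors (770 ± 393, SD, n = 2). The mean log2 difference of the sums was -1.70, with a pooled SD within genotype of 0.56. Fibrillar genes thereby made up 26.2% and 6.19% of all collagen FPKM in the triple-mutant tumors and 52.2% and 54.9% in the double-mutant tumors. Types I and III alone amounted to 173 and 87.1 FPKM against 858 and 406 FPKM, whereas the genes of types II, IX and XI together amounted to 144 and 302 FPKM against 358 and 171 FPKM and overlapped.

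Markers of fibroblasts and of other cell types outside the epithelium did not move as one. The 8 fibroblast markers summed to 88.4 and 141 FPKM in the triple-mutant and 121 and 94.2 FPKM in the double-mutant tumors. Of the 8, 3 (Dpt, Mfap5, Pi16) were separated as lower and 2 (Pdgfra, Fbln1) as higher in the triple-mutant tumors (background 22.9% and 21.3%). Dpt and Pi16 were under 1 FPKM in both triple-mutant tumors, so they passed the filter through the tumors in which they were high. Dpt was under 0.1 FPKM in tumor 26044. The 7 pericyte and smooth muscle markers summed to 51.4 and 68.9 FPKM against 34.1 and 20.4 FPKM. Of these, 2 (Notch3, Higd1b) were separated as higher in the triple-mutant tumors and 0 as lower (background 21.3% and 22.9%), while 5 overlapped. Single markers weighed heavily in the sums, with Notch3 at 25.4 FPKM in 26043 and Rgs5 at 29.6 FPKM in 26044. The 5 adipocyte markers summed to 1390 FPKM in tumor 26048, most of it Fabp4, against 7.58, 261 and 31.5 FPKM in tumors 26043, 26044 and 26050. In 26044 Fabp4 made up nearly the whole sum, and Adipoq, Cidec, Lep and Plin1 were each under 0.1 FPKM. Tumor 26048 also held the highest level of 18 of the 32 tested collagens (56.2%, against 23.2% of all genes tested). The 4 macrophage markers summed to 47.7 and 45.9 FPKM against 83.1 and 83.9 FPKM. Of these, 3 (Emr1, Cd68, Mrc1) were separated as lower in the triple-mutant tumors and 0 as higher (background 22.9% and 21.3%). The 4 Schwann cell markers summed to 20.5 and 33.6 FPKM against 8.37 and 9.47 FPKM. The 4 skeletal muscle markers summed to at most 0.689 FPKM in 3 tumors and to 28.9 FPKM in tumor 26050. The part of these cells in the collagen levels was not tested.

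None of the 4 tested type IV chains was separated between genotypes, against 44.3% of all genes. Col4a1 and Col4a2, which encode the chains of the ubiquitous type IV network, lie head to head with 2 bases between them on chromosome 8 and are known to share a promoter region. Col4a1 (chr8:11198423-11312826) was at 107 and 446 FPKM in the triple-mutant and 115 and 40.3 FPKM in the double-mutant tumors (1.67 ± 0.87, adjusted p = 0.584, limma). Col4a2 (chr8:11312829-11449287) was at 74.6 and 370 FPKM against 76.4 and 29.8 FPKM (1.78 ± 0.91, adjusted p = 0.577). For both genes tumor 26044 was high, 26050 low, and the remaining pair of tumors, 1 of each genotype, nearly equal. Leaving out 26044 brought the differences to 0.64 and 0.63.

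The remaining type IV chains, which replace or join these in particular basement membranes, went another way. Col4a5 was at 11.4 and 1.14 FPKM against 28.4 and 7.79 FPKM (-1.64, adjusted p = 0.641, limma). Col4a6, which adjoins Col4a5 on the X chromosome with 1342 bases between them, was at 9.08 and 0.297 FPKM against 1.46 and 11.05 FPKM (-0.59, adjusted p = 0.891). Tumor 26044, the highest for Col4a1 and Col4a2, was the lowest for both of these. Col4a3 and Col4a4, best known from the glomerular basement membrane, stayed at or under 0.0888 and 0.173 FPKM. The class sums were 202 and 817 FPKM against 221 and 89.1 FPKM, with a mean log2 difference of 1.53 and a pooled SD within genotype of 1.20. The 7 endothelial markers, cells that lay down type IV collagen around vessels, summed to 35.9 and 116 FPKM against 53.2 and 28.2 FPKM, with 26044 highest and 26050 lowest as for Col4a1. Their part in the type IV levels was not tested.

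The largest positive differences were those of Col17a1 and Col7a1. Col17a1 (chr19:47646341-47692042) encodes a transmembrane collagen of the hemidesmosome, the junction that ties basal keratinocytes and basal mammary cells to the basement membrane. It stood at 38.8 and 15.9 FPKM in the triple-mutant tumors and at 0.182 and 0.0986 FPKM in the double-mutant tumors, a difference of 4.51 ± 0.51 on the log2(FPKM + 1) scale (adjusted p = 0.167, limma, the lowest of the family). Both double-mutant tumors were below the level of 1 FPKM used as a filter, so the gene passed it through the tumors in which it was high. Col7a1 (chr9:108953745-108984875), the sole chain of the anchoring fibrils that hold the basement membrane to the matrix beneath, stood at 22.6 and 21.2 FPKM against 3.39 and 0.909 FPKM (2.98 ± 0.50, adjusted p = 0.239). The triple-mutant tumors were alike in Col7a1 level and well above both double-mutant tumors.

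The 6 basal epithelial markers moved with these genes. All 6 (Krt5, Krt14, Krt17, Trp63, Itgb4, Cdh3) were separated as higher in the triple-mutant tumors (background 21.3%), and their sum was 1866 and 442 FPKM in tumors 26043 and 26044 against 42.0 and 42.2 FPKM in 26048 and 26050. Col17a1 was, like that sum, higher in 26043 than in 26044, and Col7a1 was nearly equal in the pair. The share of basal cells in the Col17a1 and Col7a1 levels was not tested. The 6 luminal markers summed to 2836 and 424 FPKM against 2210 and 2022 FPKM. Of these, 4 (Krt8, Krt18, Epcam, Elf5) were separated as lower and 1, Krt19, as higher in the triple-mutant tumors (background 22.9% and 21.3%). Krt19 had the tumor order of Col17a1, at 1154 and 194 FPKM against 139 and 56.7 FPKM.

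Other transmembrane collagens did not share the pattern of Col17a1. Col25a1, a collagen of neurons and developing muscle, was at 0.818 and 3.92 FPKM in the triple-mutant and 14.2 and 4.28 FPKM in the double-mutant tumors (-1.58, adjusted p = 0.562, limma). Col23a1 was at 0.109 and 59.6 FPKM in the triple-mutant and 0.277 and 0.118 FPKM in the double-mutant tumors, which kept it outside the test since it reached 1 FPKM in a single tumor. Col13a1, a collagen of cell adhesion sites, was likewise at 4.69 FPKM in 26044 and at most 0.490 FPKM elsewhere. The family of 4 transmembrane genes thus consisted of 1 gene that was high in both triple-mutant tumors, 1 that was highest in 26048 and 2 that were high in 26044 alone.

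Short-chain collagens form hexagonal networks. Col8a2 (chr4:126286794-126314330), a component of the membrane under the corneal endothelium and of vessel walls, was at 9.89 and 12.0 FPKM in the triple-mutant and 3.55 and 1.76 FPKM in the double-mutant tumors (1.75 ± 0.39, adjusted p = 0.379, limma). Its partner Col8a1 hardly varied, at 12.5 and 13.0 FPKM against 17.6 and 11.8 FPKM (-0.17, adjusted p = 0.881). Col10a1, the collagen of hypertrophic cartilage, was between 0.345 and 1.44 FPKM. The separation of Col8a2 was therefore not shared by the other members of its class.

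**Figure D3:**
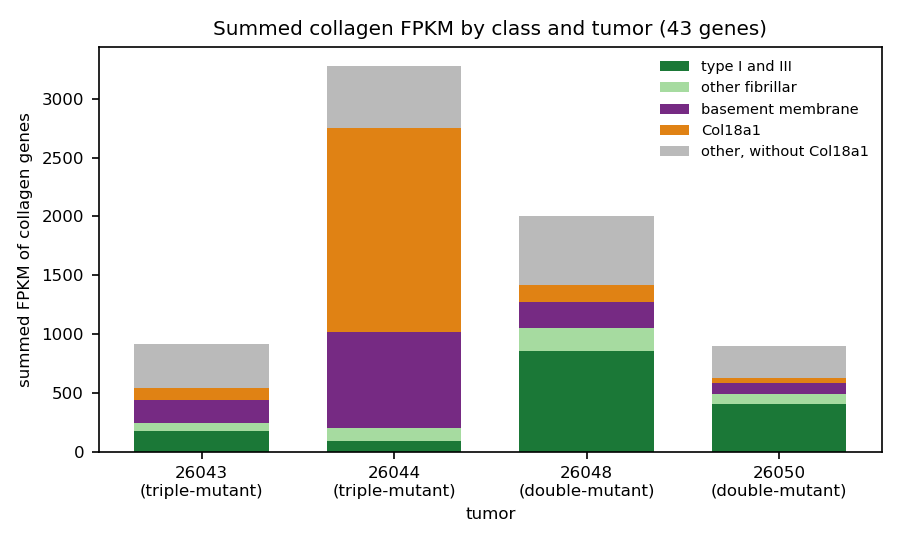
Summed FPKM of the 43 collagen genes in each tumor (bars start at 0), stacked by class with types I and III and Col18a1 shown apart. Types I and III (dark green) amount to 858 and 406 FPKM in the double-mutant tumors and to 173 and 87.1 FPKM in the triple-mutant tumors, and Col18a1 (orange) alone amounts to 1730 FPKM in tumor 26044.

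The most abundant collagen transcript of any tumor was Col18a1 in 26044. Col18a1 (chr10:77052179-77166530) encodes a multiplexin, a basement membrane proteoglycan whose end fragment is endostatin. It was at 100 and 1730 FPKM in the triple-mutant tumors and at 149 and 42.5 FPKM in the double-mutant tumors (2.38 ± 1.499, adjusted p = 0.635, limma). Tumor 26043 lay between the double-mutant tumors, and leaving out 26044 brought the difference to 0.33. Col18a1 made up 52.8% of all collagen FPKM in 26044. Its relative Col15a1, the other multiplexin, was at 11.3 and 19.3 FPKM against 38.9 and 21.4 FPKM, separated in the lower direction by less than 1 log2 unit (-0.92, adjusted p = 0.569).

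The neighbours of Col18a1 were raised with it. In 26044, 25 of the 26 tested genes within 1 megabase of Col18a1 were more than 1 log2 unit above their mean in the other 3 tumors (median 2.47, Col18a1 itself 4.31). The block ran from chr10:67009189 to chr10:78464948 by a running median over 11 tested genes, with 69 of 78 genes raised by more than 1 log2 unit. Running medians above 1 were found at 1.6% of the tested genes of the genome, 179 of these 201 genes being on chromosome 10. These 179 outnumber the 78 genes of the block, so other parts of chromosome 10 were raised as well. Col6a1 and Col6a2 lie inside the same block, 31 and 33 tested neighbours having a median of 2.17, yet their own levels in 26044 differed from their means in the other tumors by -0.42 and -0.47. Col10a1 lies on chromosome 10 outside the block, with a running median of 1.35. Its own level in 26044 differed from its mean in the other tumors by -0.67. Copy number was not measured, and its part in Col18a1 was not tested.

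The other collagens that were high in 26044 lay in no such block. Col23a1, on chromosome 11, was 5.70 log2 units above its mean in the other tumors while its 26 tested neighbours had a median of -0.06. Col4a1 and Col4a2 were 2.48 and 2.71 above, with a median of 0.23 over their 7 neighbours. Col13a1 lies on chromosome 10 (chr10:61838498-61979108) but outside the block. It was 2.06 above, while its 24 tested neighbours had a median of -0.94. On this measure of 26044 against the other tumors, the neighbours of Col17a1 had a median of 0.35 (17 genes) and those of Col7a1 of 0.32 (46 genes). For the difference between genotypes, a separate measure, the medians of the same neighbours were 0.04 and 0.40.

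**Figure D4:**
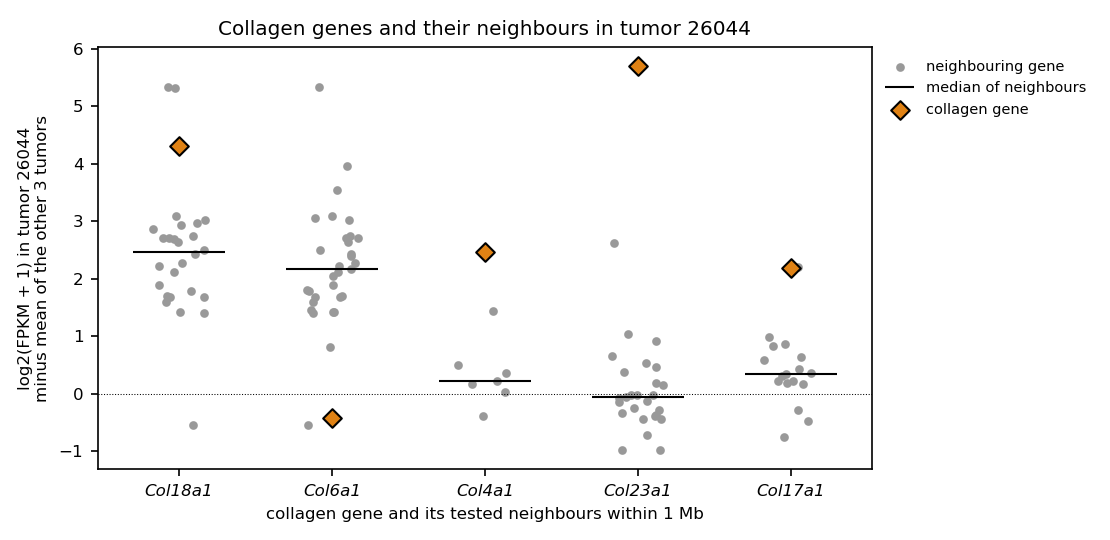
Log2(FPKM + 1) in tumor 26044 minus the mean of the other 3 tumors for 5 collagen genes (orange diamonds) and for their tested neighbours within 1 megabase (grey points, spread sideways; black line, median). The neighbours of Col18a1 and Col6a1 overlap in part and sit mostly above 1, but Col6a1 itself lies at -0.42, while Col4a1 and Col23a1 lie above neighbours with medians of 0.23 and -0.06.

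Type VI collagen, which forms beaded filaments between cells and fibrils, was separated between genotypes in 1 of its 3 tested chains. That is 33.3%, against 44.3% of all genes. Col6a1 was at 35.4 and 26.5 FPKM in the triple-mutant and 54.7 and 23.4 FPKM in the double-mutant tumors (-0.22, adjusted p = 0.895, limma). Col6a2 was at 39.0 and 26.3 FPKM against 56.3 and 22.5 FPKM (-0.15, adjusted p = 0.933). Col6a3, the long chain that completes the trimer, was at 11.8 and 10.5 FPKM against 51.8 and 14.6 FPKM and did not overlap (-1.25, adjusted p = 0.578). Relative to Col6a1, Col6a3 stood at 0.332 and 0.395 in the triple-mutant and at 0.948 and 0.626 in the double-mutant tumors, a ratio chosen after the values were seen. Col6a4, Col6a5 and Col6a6 are later-described chains that can take the place of Col6a3, and the highest of them was Col6a6 with 1.15 FPKM in 26044.

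Fibril-associated collagens with interrupted helices sit on fibrils without forming them. Col12a1, found on type I fibrils under tension, was at 6.13 and 2.48 FPKM in the triple-mutant and 17.6 and 6.77 FPKM in the double-mutant tumors (-1.27, adjusted p = 0.566, limma). Its relative Col14a1 was almost level, at 4.23 and 3.75 FPKM against 3.46 and 3.01 FPKM, and was counted as separated although the difference was 0.24 ± 0.31 (adjusted p = 0.810). Col16a1, an abundant member of this class here, was at 70.3 and 94.9 FPKM against 78.0 and 30.5 FPKM (0.73, adjusted p = 0.669). Separation without a sizeable difference, as for Col14a1, and a sizeable difference in a single tumor, as for Col16a1 in 26050, thus both occurred.

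Of the 18 tested genes among the 26 other collagens, 5 were separated as higher (Col17a1, Col7a1, Col8a2, Col9a3, Col14a1) and 5 as lower (Col9a1, Col25a1, Col12a1, Col6a3, Col15a1), with a median of -0.16. The share separated was 55.6%, against 44.3% of all genes (21.3% higher, 22.9% lower). Below the filter, Col6a4 was also separated as higher and Col19a1 as lower, at levels under 0.3 FPKM. The sum of all 26 was 477 and 2257 FPKM in the triple-mutant and 738 and 316 FPKM in the double-mutant tumors. The mean log2 difference of that sum was 1.10, with a pooled SD within genotype of 1.28, and it was 0.15 without Col18a1. Of the 11 genes below the filter, Col23a1 was the highest, followed by Col13a1, Col20a1 (1.83 FPKM in 26044) and Col6a6. Col4a3, Col4a4, Col6a4, Col6a5, Col19a1, Col22a1 and Col24a1 were under 0.3 FPKM in every tumor, and Col22a1 was listed at 0 in 26048. Col28a1 was at most 1.83 FPKM.

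Chains that share a trimer can be compared within a tumor. Col6a1 to Col6a2 was nearly constant at 0.909, 1.01, 0.971 and 1.04 in tumors 26043, 26044, 26048 and 26050, although the levels themselves varied over 2.34-fold for Col6a1. Col4a1 to Col4a2 was 1.43, 1.21, 1.504 and 1.35 while Col4a1 varied over 11.1-fold. Col1a1 to Col1a2 was 2.13, 0.806, 2.05 and 1.61, so tumor 26044 held less Col1a1 than Col1a2. Col5a1 to Col5a2 was 0.288, 0.609, 0.821 and 0.915, with both triple-mutant tumors below both double-mutant tumors (mean log2 difference -1.05). The neighbouring pair Col4a5 and Col4a6, chosen after the values were seen, had ratios of 1.25, 3.84, 19.5 and 0.705.

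**Figure D5:**
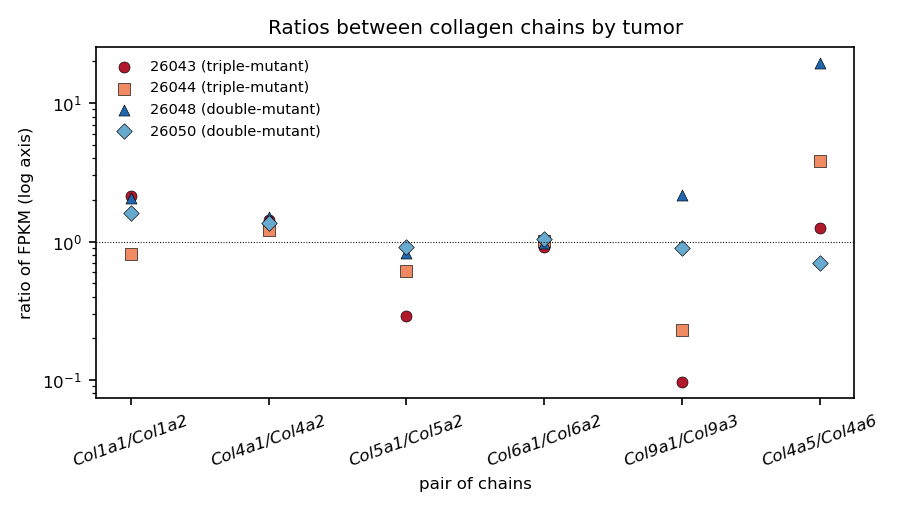
Ratio of FPKM between pairs of collagen chains in each of the 4 tumors (log axis; dotted line, ratio of 1). The symbols of Col6a1/Col6a2 and Col4a1/Col4a2 almost coincide, those of Col9a1/Col9a3 separate the triple-mutant tumors (0.0959 and 0.228) from the double-mutant tumors (2.18 and 0.900), and those of Col4a5/Col4a6 run from 0.705 to 19.5.

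The level of Col1a1 carries an uncertainty of its own. Its FPKM exceeded the midpoint of the confidence interval listed beside it by 1.63-fold to 1.91-fold, in each tumor above the upper bound. Among the 128 values of the tested members, 69, belonging to 23 genes, were outside their own interval, and their ratio to the midpoint ranged from 0.682 to 1.91. With midpoints in place of the FPKM, the difference of Col1a1 was -2.48 and its ratio to Col1a2 was 1.42, 0.493, 1.49 and 1.14 in the 4 tumors. Tumor 26044 kept the lowest level and the lowest ratio under both readings, and tumors 26043 and 26048 exchanged places at the top of the ratio.

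The spread between tumors was wide for collagens, also within a genotype. The median absolute log2 difference of the 32 collagens was 0.71 between the triple-mutant tumors and 1.27 between the double-mutant tumors, against 0.45 and 0.36 over all genes tested. Between genotypes it was 0.82 to 1.57 for collagens and 0.37 to 0.57 for all genes. The difference between tumors of 1 genotype was therefore of the same order as that between genotypes.

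Among proteins that fold and modify collagen in the endoplasmic reticulum, Leprel4, Fkbp10 and Leprel2 were higher by more than 1 log2 unit in the triple-mutant tumors. Serpinh1 differed by 1.09 too, but its genotypes overlapped. Of 17 tested genes of this list, 7 were separated as higher and 3 as lower (background 21.3% and 22.9%), and none was called (median 0.30). Leprel4, a partner of lysyl and prolyl hydroxylases, was at 37.6 and 88.4 FPKM against 10.1 and 11.5 FPKM (2.32 ± 0.48, adjusted p = 0.342, limma). Fkbp10, a collagen chaperone of the prolyl isomerase family, was at 27.4 and 80.3 FPKM against 13.8 and 10.4 FPKM (1.89 ± 0.58, adjusted p = 0.478). Leprel4 (chr11:100408750-100414819) and Fkbp10 (chr11:100415694-100424840) lie next to each other, and the part of this shared position was not tested. Leprel2, a prolyl hydroxylase, was at 10.4 and 35.1 FPKM against 8.003 and 5.09 FPKM, and P4ha3, a catalytic subunit of another prolyl hydroxylase, was at 0.894 and 0.454 FPKM against 3.25 and 1.26 FPKM. P4ha3 was thus under 1 FPKM in both triple-mutant tumors and passed the filter through the tumors in which it was high. The 3 separated genes with the largest positive differences were highest in tumor 26044, the tumor with the least Col1a1 and Col3a1.

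Among genes of procollagen processing and cross-linking, Lox, Loxl1 and Adamts14 were lower by more than 1 log2 unit. Pcolce2 differed by -1.16 too, but its genotypes overlapped. Of 12 tested, 0 were separated as higher and 5 as lower (background 21.3% and 22.9%), together 41.7% against 44.3% of all genes, and none was called (median -0.50). Lox, the lysyl oxidase that starts cross-linking of type I and III fibrils, was at 1.38 and 0.409 FPKM in the triple-mutant and 11.1 and 9.46 FPKM in the double-mutant tumors (-2.62 ± 0.40, adjusted p = 0.214, limma). Loxl1, a relative that acts mainly on elastin, was at 3.85 and 1.48 FPKM against 15.9 and 9.26 FPKM (-1.93 ± 0.50, adjusted p = 0.431). Adamts14, a procollagen N-proteinase, was at 1.35 and 0.191 FPKM against 7.35 and 5.19 FPKM (-2.10 ± 0.46, adjusted p = 0.374). Loxl2 differed less, at 4.48 and 7.11 FPKM against 12.6 and 7.67 FPKM (-0.71). Lox, Loxl1 and Adamts14 had the tumor order of Col1a1, Col1a2 and Col3a1, from 26048 through 26050 and 26043 down to 26044.

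Proteins that bind fibrils were mixed. Of 6 tested small leucine-rich proteoglycans, 1 was separated as higher and 2 as lower (background 21.3% and 22.9%; median -0.20, none called). Prelp, which links collagen to basement membrane proteoglycan, was at 30.8 and 22.7 FPKM against 5.77 and 2.49 FPKM (2.50 ± 0.45, adjusted p = 0.283, limma). Lum, the lumican that regulates fibril diameter, was at 1.12 and 0.188 FPKM against 7.80 and 4.71 FPKM (-2.16 ± 0.45, adjusted p = 0.347). Aspn, asporin, was at 1.59 and 3.61 FPKM against 5.87 and 3.88 FPKM. Prelp was thus high in both triple-mutant tumors, as Col17a1 and Col7a1 were, and Lum had the tumor order of type I.

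Few collagen receptors were separated (1 of 7 tested, 14.3% against 44.3% of all genes). The 1 was Itgb1, the common beta subunit of collagen-binding integrins, at 80.8 and 60.6 FPKM against 134 and 99.3 FPKM (-0.71, adjusted p = 0.540, limma). Of 6 tested genes of collagen degradation, 2 were separated as higher and 2 as lower (background 21.3% and 22.9%; median -0.45, none called). Mmp14, a membrane-bound collagenase that activates Mmp2, was at 154 and 196 FPKM against 53.2 and 53.5 FPKM (1.68 ± 0.27, adjusted p = 0.231). Mmp2, a gelatinase, was at 8.32 and 9.16 FPKM against 28.6 and 15.2 FPKM (-1.17 ± 0.40, adjusted p = 0.488). Pepd, the prolidase that recycles proline from collagen, was at 23.5 and 21.8 FPKM against 36.3 and 59.4 FPKM (-1.01). Mmp13, a secreted collagenase, was at 2.99 and 4.44 FPKM against 2.44 and 2.56 FPKM (0.41). Mmp14 and its substrate Mmp2 were accordingly separated in opposite directions.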

How the data were processed

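PolyA RNA of 4 mammary tumors was sequenced as strand-marked (dUTP) libraries. Per the submitters' processing notes and the study's methods, the authors aligned reads to mm10 with TopHat2 2.0.10 and Bowtie 0.12.9 and deposited FPKM per gene from Cufflinks 2.1.1, one table per tumor, with a confidence interval and a status. HTSeq counts and the DESeq2 1.6.2 results were not used here. Starts in the tables count from 0, and 1 was added.

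Members were chosen by name. The members, classes, gene lists and tests were chosen with earlier results of these data known. Groups came from the genotype in the labels. Genes had to reach 1 FPKM in 2 tumors or more, and their log2(FPKM + 1) was compared by limma 3.58.1 (R 4.3.3) with a mean-variance trend and Benjamini-Hochberg adjustment over 12752 genes, as triple-mutant minus double-mutant, since a count test needs counts. The pseudocount understates the change of low genes. Genotypes do not overlap where every tumor of one lies above every tumor of the other. Values in every tumor were given for members that reached 10 FPKM in a tumor or that were separated by at least 1 log2 unit (29 genes), and for up to 4 separated genes per pathway list with the largest differences. Genes outside this rule are Col14a1 and those named as low. Whole reads could not be recovered from the FPKM, so depth, and with it counting error, is unknown. In simulated data, all 12752 genes were given 1 common spread, the median of the real genes within genotype. With 200 genes changed, limma recovered 11% of changes of 1 log2 unit and 97% of changes of 4 log2 units, with 0 false calls. Collagens varied more within a genotype than genes at large, so these shares do not carry over to them. Alternatives were another pseudocount, filter, scaling, variance model, interval midpoint, status filter, gene set and each tumor left out. Repeats were read from GENCODE M21 coding sequences and promoters from RefSeq (GRCm38.p6). Protein sequences were not used here.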

Additional observations from a re-analysis of the deposited data

How the results depend on the processing

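No collagen gene and no pathway gene was called by limma under any of the 13 alternatives, whereas over all genes 6 were called after quantile normalization, 5 without the variance trend and 1 with interval midpoints. With each tumor left out in turn, where a lone tumor is assumed to vary like the other genotype, separated collagens numbered 6 to 13 higher and 13 to 19 lower in the triple-mutant tumors (main 5 and 10), and separated pathway genes 11 to 19 higher and 15 to 23 lower (main 10 and 13), since fewer tumors are more easily separated. Of 422 differences of 48 named genes under the other settings, 421 kept their direction. The exception was Col11a1, at 0.12 with interval midpoints, and the cause was not tested. Of 192 differences with a tumor left out, 173 kept their direction and 19, of 12 collagens, did not. Their lowest and highest values were -2.07 and 0.89 for Col4a6, -0.72 and 0.68 for Col11a1, -1.54 and 0.50 for Col2a1, -1.26 and 0.13 for Col5a2, -0.97 and 0.19 for Col5a3, -0.81 and 0.38 for Col6a1, -0.79 and 0.49 for Col6a2, -1.47 and 0.089 for Col9a2, -0.44 and 0.10 for Col8a1, -0.86 and 1.31 for Col11a2, -0.65 and 0.040 for Col10a1, and -0.72 and 0.49 for Col28a1. With a tumor left out, the mean log2 difference of summed FPKM ranged from -2.25 to -1.15 for fibrillar and from 0.53 to 2.54 for basement membrane collagens. That of the other collagens (main 1.10) ranged from -0.02, without 26044, to 2.22, so its direction was lost. The differences of the chain ratios ranged over -1.17 to 0.23 for Col1a1/Col1a2, -0.24 to 0.01 for Col4a1/Col4a2, -1.59 to -0.51 for Col5a1/Col5a2 and -0.14 to 0.01 for Col6a1/Col6a2. With 2 tumors a genotype, leaving 1 out cannot move a mean difference beyond the pooled SD, so the ranges of sums and ratios are no test of stability. Col17a1 stayed at 3.89 to 5.12, Col7a1 at 2.38 to 3.58 and Col3a1 at -2.85 to -2.16. No paired analysis was possible because the labels give no litter or number shared across the genotypes, although the study calls the females littermates. Unknown depth limits every value under 1 FPKM.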
